A study of Mus musculus with 10 samples.

Results

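The Tex symbols, short for testis expressed, name mouse genes that were first recognised by transcripts of the testis. The table held 38 symbols that begin with Tex and a digit among 15507 genes, and after Tex11, Tex12 and Tex15 were set aside, 35 genes remained and are described here. Germ cells were dispersed from testes of 5 wild type (WT) mice and 5 homozygous GRTH Knock-In (KI) mice, all 45 days old, and RNA of each mouse was sequenced as 1 library. GRTH, also called DDX25, is an RNA helicase of the testis, and the KI allele is human GRTH with an arginine to histidine mutation, carried by every cell of the animal. The preparation held spermatogonia, spermatocytes and spermatids together, and no sort separated them. The values are normalized counts, that is, reads of a gene divided by the size factor of its library, and fold changes were computed on log2(normalized count + 1).

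The Tex genes are not a family by sequence. Some code for proteins of the sperm flagellum that are made in spermatids, some act in meiotic or premeiotic germ cells, and some are used in every cell. During spermiogenesis round spermatids elongate, build a flagellum and condense their nucleus, and many transcripts that serve these steps first appear after meiosis. Transcription stops as the nucleus condenses, and such transcripts are stored and translated later. The question of the comparison was how the transcripts of these genes differ between germ cells with and without normal GRTH.

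The WT libraries held 13323024 to 16422347 reads on genes and the KI libraries 12722086 to 15500582, so that 3 reads, the limit that a count of 0 leaves possible, were 2.61 to 3.62 normalized counts (counting error only). Every Tex gene had reads in all 10 libraries. Ddx25, the targeted gene, had normalized counts of 5198 to 11101 in WT and of 146, 194, 161, 2.88 and 1.84 in KI libraries 1 to 5. Reads were aligned to the mouse genome and the KI allele is human GRTH, so these KI counts may not measure its transcript. The gap between KI libraries 1 to 3 and KI libraries 4 and 5 was not examined further. On the first principal component (74.1% of the variance) the genotypes separated, and on the second (9.75%) libraries 1 to 3 separated from libraries 4 and 5 in both genotypes. All 10 of 10 markers of elongating spermatids were lower in KI, with a median log2 fold change of −2.53. Their summed level was 251280 to 446571 normalized counts in WT and 35746 to 71996 in KI, and none was at 0. Of 10 round spermatid markers 4 had an adjusted p under 0.05, all lower, of which 1 also reached a fold change of 1.5, with a median of −0.36 (−0.19 in libraries 1 to 3, −0.66 in libraries 4 and 5). Of 10 spermatocyte markers 1 had an adjusted p under 0.05, with a smaller fold change (median −0.08). Of 9 tested spermatogonia markers 1 had an adjusted p under 0.05, lower with a smaller fold change (median 0.02). Somatic markers were counted as higher in KI at an adjusted p under 0.05 and a fold change of at least 1.5. These were 4 of 7 of Leydig cells, 6 of 9 of macrophages, 2 of 4 tested of peritubular myoid cells and 0 of 8 of Sertoli cells. Of the Sertoli markers 1 had an adjusted p under 0.05 with a smaller rise, and their median was 0.19 (0.43 in libraries 1 to 3, −0.25 in libraries 4 and 5). The other tested myoid markers, Myh11 and Tagln, had log2 fold changes of −0.30 and −0.23 (adjusted p = 0.283 and 0.442). With the library number as a block 6 of 7 Leydig markers were higher. The summed levels of somatic markers in WT and KI were 10875 to 19503 and 15729 to 27046 for Leydig cells, 934 to 1176 and 1511 to 1840 for macrophages, and 120.2 to 208 and 191 to 236 for myoid cells. In bulk RNA, fewer cells of a type and less RNA per cell cannot be told apart, and the part of cell composition in the values below was not tested.

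Transcripts of 12 of the 35 Tex genes were lower in KI than in WT, and 0 were higher. These were Tex46, Tex37, Tex28, Tex35, Tex50, Tex48, Tex47, Tex55, Tex44, Tex13a, Tex45 and Tex24, with log2 fold changes from −2.13 to −0.75 (given as value ± SE below). A differentially expressed gene (DEG) had an adjusted p under 0.05 (limma, Benjamini-Hochberg over 15389 genes tested) and a fold change of at least 1.5. Over all genes tested 14.4% were DEGs, 8.22% lower and 6.13% higher, against 34.3% lower among the Tex genes. All 35 Tex genes passed the filter on low counts. With edgeR and with DESeq2 on the recovered reads, 12 were again lower and 0 higher, and 0 Tex genes were higher even at an unadjusted p under 0.05, where 16.2% of all genes were. With counts scaled to library totals, which moved the median of all genes to 0.25, Tex14 and Tex264 had an adjusted p under 0.05 in the higher direction (0.00839 and 0.00721), with log2 fold changes of 0.36 and 0.39. Tex21, Tex43, Tex30 and Tex36 fell by less than 1.5-fold with an adjusted p under 0.05. They were 11.4% of the Tex genes, against 8.58% of all genes with such a smaller change in either direction. Without a test, 29 of 35 Tex genes (82.9%) had a fitted value below 0, against 46.4% of all genes. The median log2 fold change of the 35 Tex genes was −0.31, against 0.03 over all genes.

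**Figure D1:**
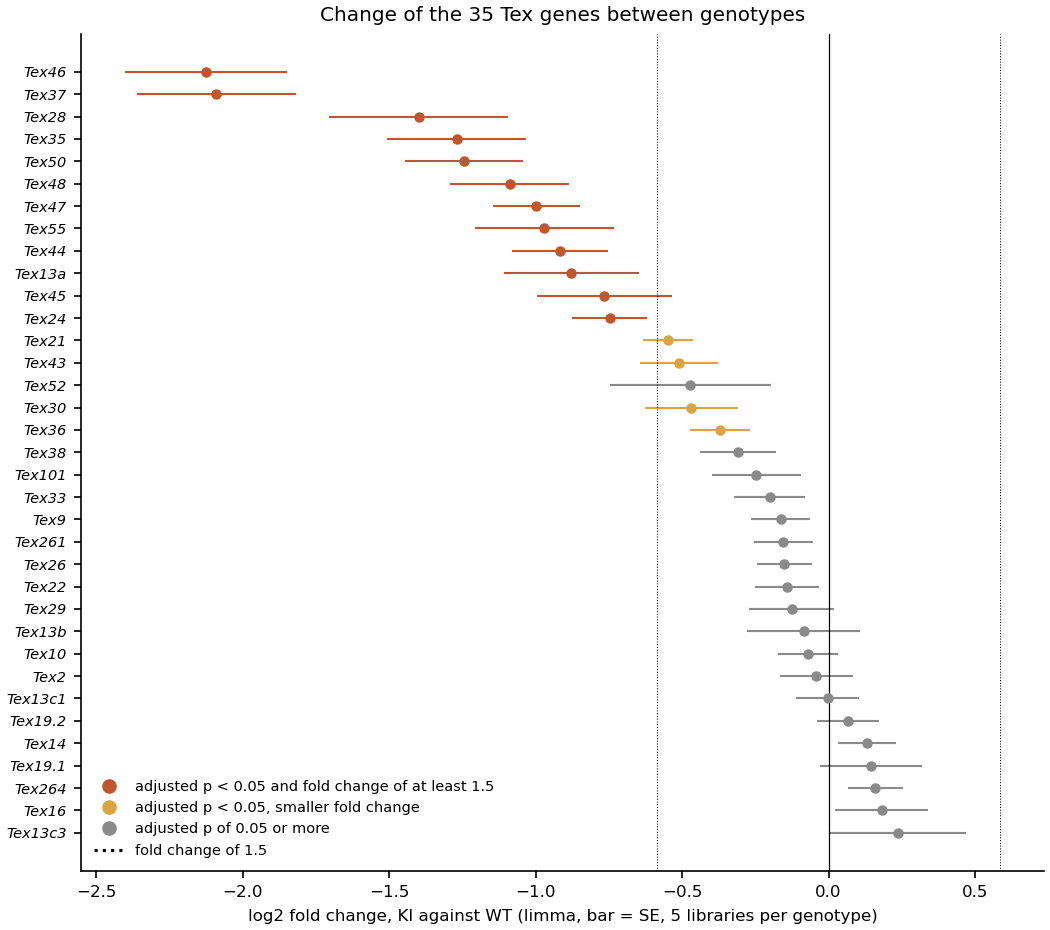
Log2 fold change of the 35 Tex genes, KI against WT (horizontal axis, limma, bars are the SE, 5 libraries per genotype), ordered from the lowest to the highest, with dotted lines at a fold change of 1.5. The 12 red genes, from −2.13 to −0.75, are differentially expressed, the 4 yellow genes have an adjusted p under 0.05 with a smaller fold change, and 0 of the genes right of 0 pass the test.

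The genotypes did not overlap, every KI library being below every WT library, for 12 Tex genes (34.3%), against 10.9% of all genes tested. They were 9 of the DEGs together with Tex21, Tex43 and Tex36. The reverse, every KI library above every WT library, was found for 0 Tex genes and for 6.8% of all genes. Tex55, Tex13a and Tex45 were DEGs with overlapping libraries.

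Tex37 and Tex46 fell most. Tex37 codes for a protein of the inner wall of the doublet microtubules in the sperm flagellum. Its normalized counts were 1932, 2183, 2507, 1009 and 1083 in WT libraries 1 to 5 and 460.2, 485, 513, 335 and 214 in KI libraries 1 to 5. The lowest WT library was thus still above the highest KI library, although WT libraries 4 and 5 held far fewer reads of Tex37 than WT libraries 1 to 3. KI held 23.0% of the WT mean (log2 fold change −2.09 ± 0.27, adjusted p = 5.23e-05). Tex46 is a short gene of chromosome 4 with normalized counts of 309.6, 332, 429, 276 and 191 in WT and 87.6, 101, 85.5, 56.7 and 32.2 in KI. KI library 5 was the lowest of all, and KI held 23.6% of the WT mean (log2 fold change −2.13 ± 0.28, adjusted p = 5.1e-05). Tex28, an X-linked gene, had the lowest counts of the 35, 22.0, 25.4, 21.7, 16.0 and 16.0 in WT and 9.73, 9.56, 4.12, 8.65 and 4.60 in KI. The genotypes did not overlap (log2 fold change −1.40 ± 0.30, adjusted p = 0.00357), but the KI values correspond to few reads, and the gene drops out when a mean of at least 50 normalized counts is asked for.

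**Figure D2:**
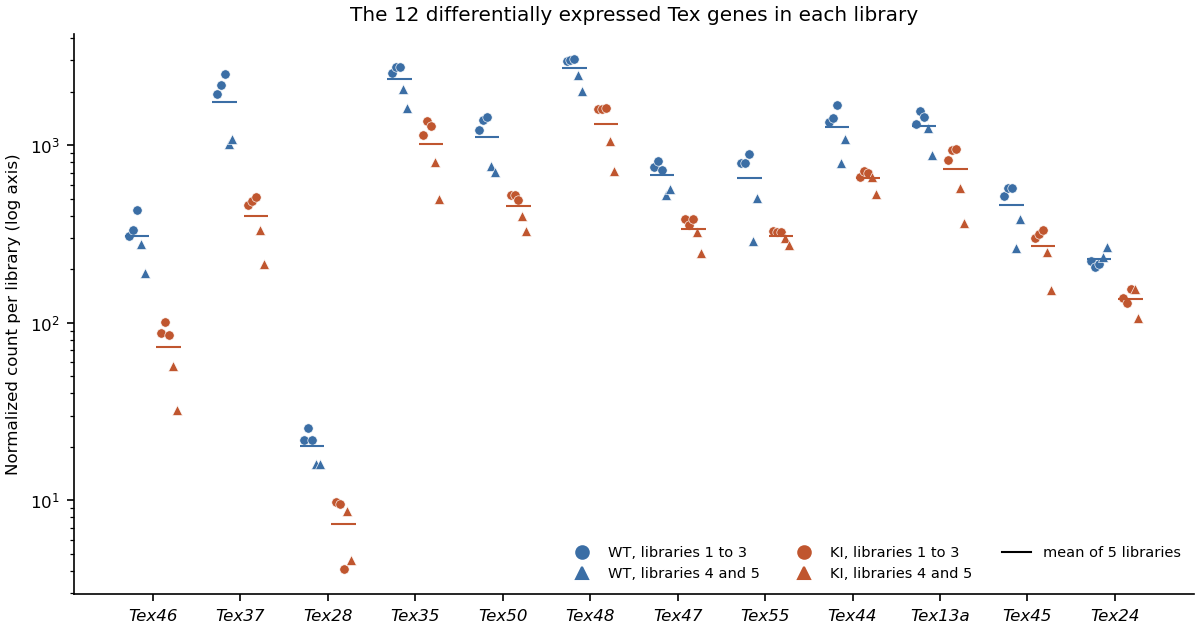
Normalized counts (log axis) of the 12 differentially expressed Tex genes in each library, WT in blue and KI in red, circles for libraries 1 to 3, triangles for libraries 4 and 5, lines for the mean of 5 libraries. The KI mean lies below the WT mean for each gene, while single libraries overlap between genotypes for Tex55, Tex13a and Tex45. WT libraries 4 and 5 lie below WT libraries 1 to 3 for 11 of the 12, all but Tex24.

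Tex35, Tex50, Tex48 and Tex47 fell to between 41.02% (Tex50) and 49.96% (Tex47) of the WT mean. Tex35 had normalized counts of 2558, 2766, 2745, 2078 and 1623 in WT and 1142, 1369.7, 1281, 802 and 499 in KI (log2 fold change −1.27 ± 0.24, adjusted p = 0.00113). Tex50 had 1222, 1382, 1449, 763 and 708 in WT and 522, 526, 492, 399 and 327 in KI (log2 fold change −1.24 ± 0.20, adjusted p = 0.000368). In both genes the highest KI library stayed below the lowest WT library. Tex48 had normalized counts of 2969, 3008, 3046, 2491 and 2011 in WT and 1589, 1602, 1626, 1052 and 718 in KI (log2 fold change −1.09 ± 0.20, adjusted p = 0.00119). Tex47 had 750.0, 819, 728, 524 and 568 in WT and 385, 355, 383, 324 and 246 in KI (log2 fold change −0.997 ± 0.15, adjusted p = 0.000175). KI library 5 was the lowest library for each of these 4 genes.

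Tex55 and Tex45 code for proteins tied to the sperm flagellum. Tex55 binds the regulatory subunit of protein kinase A, and Tex45 belongs to a group of proteins that stabilise axonemal microtubules. The normalized counts of Tex55 were 791, 792, 891, 289.9 and 501 in WT and 329, 322, 322, 299 and 272 in KI. The KI libraries lay close together, and WT library 4 fell among them (log2 fold change −0.97 ± 0.24, adjusted p = 0.0078). The normalized counts of Tex45 were 517, 573, 570.1, 264 and 385 in WT and 298, 316, 332, 250.02 and 154 in KI. WT library 4 again lay within the KI range (log2 fold change −0.76 ± 0.23, adjusted p = 0.026), and the call of Tex45 was lost when WT library 1, 2 or 3 or KI library 4 was left out (adjusted p of 0.0516 to 0.0711), and without KI library 5 its fold change was under 1.5.

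Tex44, Tex13a and Tex24 complete the DEGs. Tex44 had normalized counts of 1345, 1419, 1680.1, 797 and 1081 in WT and 661, 715, 697, 658 and 533 in KI, with no overlap (log2 fold change −0.92 ± 0.16, adjusted p = 0.00082). Tex13a is X-linked and had 1309, 1555, 1443, 1249.8 and 877 in WT and 820.3, 945, 946, 573 and 364 in KI. WT library 5 lay within the KI range, and KI libraries 4 and 5 were the lowest (log2 fold change −0.88 ± 0.23, adjusted p = 0.0122). Tex24 had 224, 205, 214, 236 and 267 in WT and 138, 129, 155, 154 and 107 in KI (log2 fold change −0.75 ± 0.13, adjusted p = 0.000616). In Tex24, unlike the other 11 DEGs, WT libraries 4 and 5 were the highest of all. Its transcript shares 32.4% of its 50-base stretches with Gm6853, so that reads of the 2 genes cannot be fully told apart.

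Of the 4 genes with smaller falls, Tex43 codes for another inner protein of the flagellar microtubules. It had normalized counts of 994, 939, 951, 1097 and 887 in WT and 739, 771, 779, 720.3 and 458 in KI (log2 fold change −0.51 ± 0.13, adjusted p = 0.012). Tex21 had 3551, 3647, 3557, 3822 and 3764 in WT and 2599.9, 2651, 2556, 2641 and 2122 in KI (log2 fold change −0.55 ± 0.09, adjusted p = 0.000263), the smallest SE of the 16 genes with an adjusted p under 0.05. Neither gene overlapped between genotypes, and KI library 5 stood below the other KI libraries in both. Tex36 ranged from 2144 to 2987 in WT and from 1659.8 to 2002 in KI without overlap (log2 fold change −0.37 ± 0.10, adjusted p = 0.0153). Tex30 ranged from 974 to 1688 in WT and from 748 to 1247 in KI with overlap (log2 fold change −0.47 ± 0.16, adjusted p = 0.0455), and part of its exons is shared with a noncoding gene model on the same strand, Gm29247. The adjusted p of Tex30 rose to 0.05 or more in 10 of 24 alternatives, among them 6 that left out 1 library (WT 1, 2 or 3 or KI 2, 4 or 5, 0.0725 to 0.121) and the other scalings (up to 0.256). That of Tex36 did so in 4 (up to 0.423), that of Tex43 in 2 (up to 0.138) and that of Tex21 in 1 (0.118, scaling on spermatocyte markers). Tex38, the membrane partner of the palmitoyltransferase Zdhhc19 in spermatids, ranged from 649.8 to 894 in WT and from 542 to 795 in KI. It missed the threshold (log2 fold change −0.31 ± 0.13, adjusted p = 0.102), while with the library number as a block the adjusted p was 0.00881, still with a fold change under 1.5.

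Several of the Tex genes with the most reads did not pass the test. Tex33 codes for a further ciliary microtubule inner protein, and its normalized counts were 4612, 5039, 4858, 4835 and 4674 in WT and 4385, 4788, 4672, 4422 and 2928 in KI. KI libraries 2 and 3 lay within the WT range and KI libraries 1, 4 and 5 below it, library 5 by far the most (log2 fold change −0.20 ± 0.12, adjusted p = 0.264). Thus, among the 4 microtubule inner or axonemal proteins named here, Tex37 and Tex45 were DEGs, Tex43 fell by less than 1.5-fold and Tex33 missed the test. Tex22 had 2903 to 3473 in WT and 2303 to 3264 in KI (−0.14 ± 0.11, adjusted p = 0.388).

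Tex2, Tex10, Tex261 and Tex264, which serve general functions of cells, did not pass the test. Tex2, a lipid transfer protein of the endoplasmic reticulum, had the most reads of the 35, with 11317, 13121, 11304, 12656 and 14455 normalized counts in WT and 10921, 10667, 10608, 15050.3 and 14266 in KI. KI libraries 4 and 5 lay above KI libraries 1 to 3, and the mean difference was small against the spread (log2 fold change −0.04 ± 0.12, adjusted p = 0.852). Tex10, a subunit of the PELP1 and rixosome complex that matures ribosomal RNA, ranged from 2098 to 2625 in WT and from 1975 to 2589 in KI (log2 fold change −0.07 ± 0.10, adjusted p = 0.673). The library groups differed in sign for Tex10, with −0.29 in libraries 1 to 3 alone (limma, adjusted p = 0.00658). In libraries 4 and 5 alone it was 0.25 (adjusted p = 0.266), and the limma interaction missed the threshold (adjusted p = 0.0747). Tex261, which helps cargo leave the endoplasmic reticulum, ranged from 743 to 828 in WT and from 638 to 889 in KI (log2 fold change −0.15 ± 0.10, adjusted p = 0.307). Tex264, a receptor that brings endoplasmic reticulum to autophagosomes, ranged from 808 to 925 in WT and from 831 to 1082 in KI (log2 fold change 0.16 ± 0.09, adjusted p = 0.253). In each of these 4 genes the genotypes overlapped.

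Tex14 is needed for the intercellular bridges that join germ cells. Its normalized counts were 1329.5, 1211, 1093, 1022 and 1213 in WT and 1289, 1197, 1144, 1308 and 1489.5 in KI, with a log2 fold change of 0.13 ± 0.10 (adjusted p = 0.381). Tex19.1 and Tex19.2 are neighbouring paralogues on chromosome 11, of which Tex19.1 holds down retrotransposons in germ cells. Tex19.1 ranged from 127 to 237 in WT and from 161 to 258 in KI (log2 fold change 0.15 ± 0.17), and Tex19.2 from 380.2 to 539.6 and from 435 to 485 (log2 fold change 0.07 ± 0.11). Neither passed the test (adjusted p = 0.608 and 0.712), and the pair share 50 stretches of 50 bases, 2.67% of those of Tex19.1 and 2.50% of those of Tex19.2.

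The Tex genes of the X chromosome other than Tex13a and Tex28 did not pass the test. Of the 6 X-linked Tex genes, Tex13b, Tex13c1, Tex13c3 and Tex16 had log2 fold changes of −0.08, −0.0032, 0.24 and 0.18, with adjusted p of 0.803, 0.989, 0.527 and 0.468. The difference between Tex13a and its relatives was not tested, and Tex13c3 shares 9.55% of its 50-base stretches with Gm40. Tex9, Tex26, Tex29 and Tex52 had log2 fold changes of −0.16, −0.15, −0.13 and −0.47, and their adjusted p were 0.272, 0.278, 0.594 and 0.244. Tex52 varied most among these 4, with 142, 201, 185, 76.2 and 91.3 normalized counts in WT and 118, 112, 99.9, 102 and 52.4 in KI. WT libraries 4 and 5 of Tex52 lay below 4 of the 5 KI libraries. Its exons share 144 bases with Foxm1 on the same strand, and those of Tex9 share 2842 bases with Mns1 on the opposite strand. The counting was not stated to use strand, so that reads of such pairs could not be told apart there. Exons of Tex10 share 226 bases with Invs on the opposite strand, and Invs had a log2 fold change of 0.16 (adjusted p = 0.518). Mns1 had a log2 fold change of −0.11 (adjusted p = 0.532) and Foxm1 one of −0.35 (adjusted p = 0.0474).

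Levels between genes were compared as normalized counts per kb of exon, for the 34 Tex genes with a GENCODE vM21 gene model (Tex55 had no match under this symbol). In WT, Tex48 had the highest level, 3926 ± 651 (SD, n = 5), closely followed by Tex33 with 3871 ± 135, and these 2 levels did not differ beyond their spread. Tex22, Tex36, Tex2, Tex35 and Tex37 came next, from 2485 to 2141, and neighbours in this order overlapped by their SD. In KI, Tex33 ranked first with 3416 ± 606, Tex22 had 2267 ± 335, Tex2 had 2206 ± 389 and Tex48 had 1912 ± 598. Tex37 moved from rank 7 to rank 15 of 34, and Tex46 from rank 18 to rank 26. Tex28 and Tex16 had the lowest levels in both genotypes. The summed normalized counts of the 35 genes were 51278 to 57637 in WT and 38817 to 45750 in KI. Scaled to library totals (CPM), the sums were 3318 to 3462 in WT and 2778 to 3324 in KI, which overlap. The share of Tex2 in this sum was 23.2% in WT and 28.6% in KI.

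**Figure D3:**
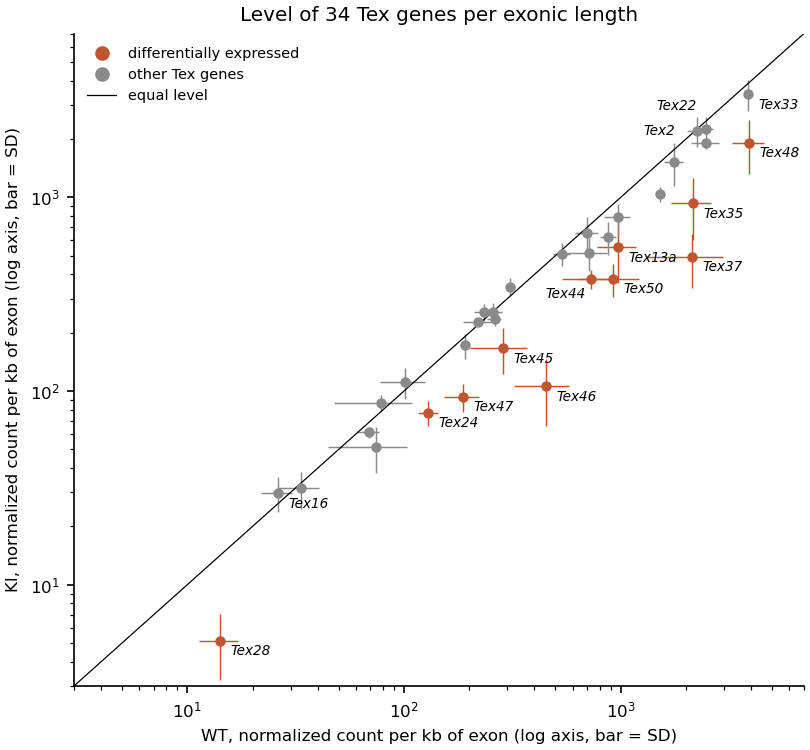
Mean level of 34 Tex genes in WT (horizontal axis) and KI (vertical axis) in normalized counts per kb of exon, both on log axes, bars are the SD of 5 libraries and the line marks equal levels. The differentially expressed genes (red) lie below the line at all levels, from Tex28 at the bottom to Tex48 at the top.

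Libraries 1 to 3 and libraries 4 and 5 were examined apart, since they separated on the second component in both genotypes. In WT, libraries 4 and 5 both lay below libraries 1 to 3 for 11 of the 12 DEGs and for 8 of the other 23 Tex genes, against 20.9% of all genes. In KI the same order was found for 10 of the 12 DEGs and 5 of the other 23 Tex genes, against 24.7% of all genes. The summed elongating spermatid markers were ordered likewise, with 369671 to 446571 normalized counts in WT libraries 1 to 3 and 251280 to 266483 in WT libraries 4 and 5, and with 63724 to 71996 and 35746 to 54255 in KI. Summed round spermatid markers had the same order, 45351 to 48893 against 35794 to 37178 in WT and 24356 to 25446 against 16072 to 21542 in KI. Much of the WT sum was Gapdhs, with 22117 to 26694 in WT libraries 1 to 3 and 14160 and 16565 in WT libraries 4 and 5. In KI, Gapdhs had 4775 to 5218 in libraries 1 to 3 and 4853 and 3587 in libraries 4 and 5. Summed spermatocyte markers had this order too, 18882 to 25159 against 17515 to 18049 in WT and 19239.8 to 21426 against 16542 to 17734 in KI. The part of these markers in the order of the Tex genes was not tested. Within libraries 1 to 3 alone 13 Tex genes (37.1%) were lower, all 12 and Tex52, against 8.69% of all genes. Within libraries 4 and 5 alone 12 (34.3%) were, against 7.06% of all genes, with Tex101, Tex21 and Tex43 in place of Tex28, Tex45 and Tex55. Libraries 1 to 3 gave the Tex genes a median log2 fold change of −0.29 and libraries 4 and 5 one of −0.40, with 0.02 over all genes in either group.

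The change between genotypes differed between these library groups for 1 Tex gene, Tex101, by the interaction term of limma (2.86% of the Tex genes, against 0.247% of all genes). Tex101 codes for a glycoprotein on the surface of male germ cells that is needed for sperm to pass into the oviduct. Its normalized counts were 2894, 2607, 2901, 3416 and 2834 in WT and 2972, 2912, 3067, 1927 and 1761 in KI. KI libraries 1 to 3 lay among the WT libraries, and KI libraries 4 and 5 lay below all others. The log2 fold changes were 0.09 (libraries 1 to 3) and −0.76 (libraries 4 and 5), a difference of −0.85 ± 0.14 (adjusted p = 0.0259), and over all libraries it was −0.25 ± 0.15 (adjusted p = 0.274). The interaction no longer passed when counts were scaled on spermatocyte markers (adjusted p = 0.240) and when WT library 2 or 4 or KI library 1, 2 or 3 was left out (0.0734 to 0.163), while the difference stayed at −0.86 in the former and from −0.71 to −0.87 in the latter. Without KI library 4, 6 Tex genes passed the interaction test, Tex101, Tex13a, Tex33, Tex35, Tex43 and Tex48. The share of all genes that passed in that fit is not given, so the rise cannot be read as particular to the Tex genes.

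**Figure D4:**
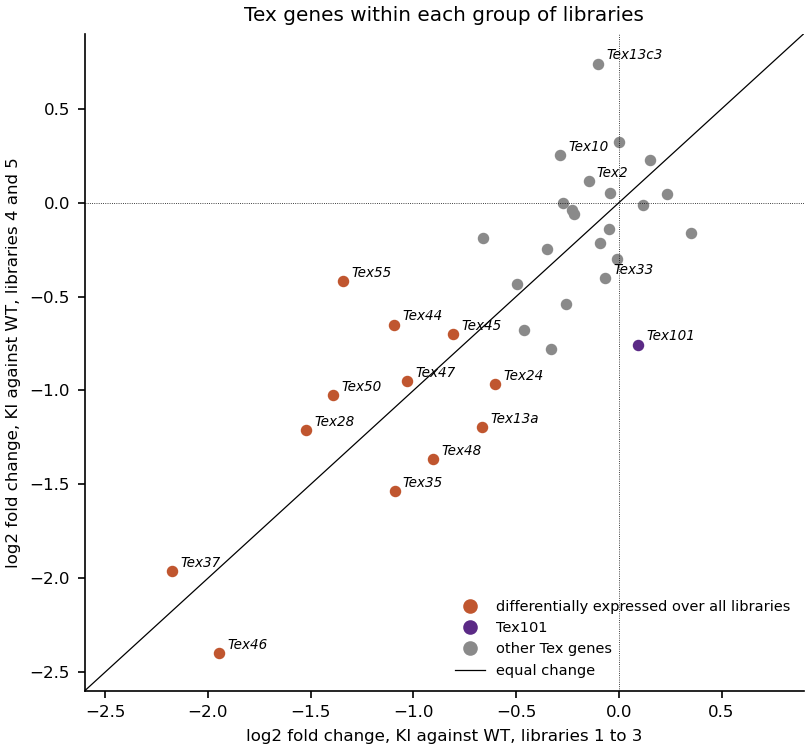
Log2 fold change of the 35 Tex genes, KI against WT, in libraries 1 to 3 (horizontal axis) and in libraries 4 and 5 (vertical axis), with the line of equal change. The 12 differentially expressed genes (red) are below 0 in both groups of libraries, and Tex101 (purple) is at 0.09 in one and −0.76 in the other.

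Genes were listed for 7 of the Tex genes, and their changes were read beside those of the Tex gene. The lists hold genes of the same process or role, except those for Tex38 and Tex19.1. These hold the gene families of a partner, Zdhhc19 and Ubr2, and the other family members are not given as partners. Unless another rule is given, the counts of lower and higher genes are of DEGs. Over all genes tested 8.22% were DEGs lower in KI and 6.13% higher, and no list was tested against these shares. Of 13 genes for the maturation of Adam3 and for sperm migration, the process of Tex101, 3 were lower, namely Ace (−1.14), Adam1a (−0.71) and Pmis2 (−0.70), all log2 fold changes. Adam3 itself, a sperm surface protein, had a log2 fold change of −0.49 ± 0.10 (adjusted p = 0.00231), under a fold change of 1.5. Ly6k and Dpep3, which bind Tex101, had log2 fold changes of −0.12 and −0.01 (adjusted p = 0.448 and 0.965). Of 22 palmitoyltransferase genes 3 were lower, Zdhhc4 (−1.10), Zdhhc19 (−0.70) and Zdhhc25 (−0.65). Zdhhc19, the partner enzyme of Tex38, was a DEG (adjusted p = 0.00076), and Tex38 was not (−0.31 ± 0.13, adjusted p = 0.102). Both fitted values were below 0, and the difference between the genes was not tested.

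Of 8 receptors for the removal of endoplasmic reticulum, the role of Tex264, 2 were lower, Atl3 (−2.09 ± 0.14, adjusted p = 9.4e-08) and Retreg1 (−1.12 ± 0.16, adjusted p = 0.00016), and 0 were DEGs higher in KI. At an adjusted p under 0.05 with any fold change, 4 of the 8 were lower and 2 higher. The 2 higher genes were Sec62 (0.37 ± 0.09, adjusted p = 0.00553) and Calcoco1 (0.35 ± 0.10, adjusted p = 0.0263). Of 15 genes of COPII export, the pathway of Tex261, Sec23a was lower (−0.99) and Sec24d higher (0.87), and the others were not DEGs. Of 6 UBR ubiquitin ligases 1 was lower, Ubr7 (−0.81), while Ubr2, the partner of Tex19.1, had a log2 fold change of 0.26 ± 0.12 (adjusted p = 0.142, with the library number as a block 0.0387). For the complex of Tex10, 0 of 6 genes were DEGs, with −0.07 for Pelp1, 0.17 for Wdr18 and 0.07 for Senp3. For the intercellular bridge of Tex14, 0 of 9 genes were DEGs, and Cep55, which Tex14 binds, had a log2 fold change of 0.12 ± 0.10 (adjusted p = 0.462). Kif23 of this list rose by less than 1.5-fold (log2 fold change 0.39 ± 0.13, adjusted p = 0.0392). The median log2 fold change was −0.31 over the listed genes of Adam3 maturation, −0.05 over the palmitoyltransferases, −0.04 over the reticulum receptors, −0.02 over COPII, 0.01 over the UBR ligases, 0.12 over the complex of Tex10 and 0.07 over the bridge, against 0.03 over all genes.

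**Figure D5:**
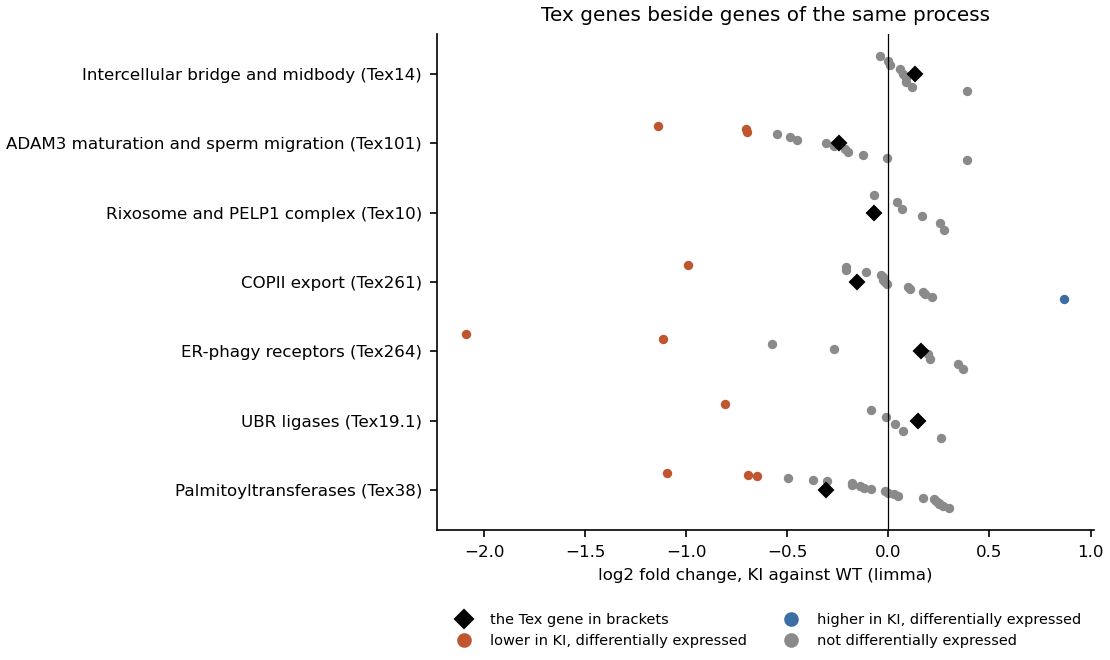
Log2 fold change, KI against WT, of 7 Tex genes (black diamonds) and of the tested genes listed for the same process or for the gene family of a partner (dots). Red dots are differentially expressed and lower in KI, the blue dot, Sec24d, is higher, and no diamond is differentially expressed.

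The DEGs were compared with the other Tex genes for features that the test had not used. The median exonic length was 1317 bases for the 11 DEGs with a gene model and 2046 bases for the other 23 Tex genes, and the median number of exons was 3 and 6. Of the DEGs 2 of 12 were X-linked, and of the others 4 of 23. The DEGs lay on 7 chromosomes. RefSeq start sites of GRCm38.p6 were found for 30 of the 35 genes, 9 of them DEGs, with 1 or more windows each, from 250 bases before to 50 bases after the start site. The GC box GGGCGG, on either strand, was in 0 of the 9 DEGs and in 9 of the other 21 Tex genes, against 38.2% of all genes with a window. The CCAAT box was in 1 of 9 and in 8 of 21, against 41.1%, and TATAAA was in 1 of 9 and in 2 of 21, against 15.7%. The cAMP response element TGACGTCA was in 0 of the 30 (2.03% of all genes), and its part TGACGT was in 0 of 9 and in 3 of 21 (8.37%). These are matches of letters and no sites, and no test was run on them. The median GC content of the windows was 51.3% for the DEGs, 53.7% for the others and 52.7% over all windows.

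The 250 bases before the start site are shown for the DEGs with the largest falls, Tex37 and Tex46. Beside them stand Tex38, 1 of the 12 other Tex genes with no GC box, and Tex2, the extreme of the 30 with 78.7% GC in its window. Each runs 5′ to 3′ on the strand of the gene given in brackets and ends at the base before the start site, and capitals mark GC boxes on either strand.
Tex37, chr6:70918923-70919172 (-): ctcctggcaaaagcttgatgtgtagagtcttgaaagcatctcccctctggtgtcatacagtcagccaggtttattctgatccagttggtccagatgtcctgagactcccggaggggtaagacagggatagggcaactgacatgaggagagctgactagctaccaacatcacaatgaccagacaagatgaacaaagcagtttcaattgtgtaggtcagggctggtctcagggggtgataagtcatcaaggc
Tex46, chr4:136610187-136610436 (+): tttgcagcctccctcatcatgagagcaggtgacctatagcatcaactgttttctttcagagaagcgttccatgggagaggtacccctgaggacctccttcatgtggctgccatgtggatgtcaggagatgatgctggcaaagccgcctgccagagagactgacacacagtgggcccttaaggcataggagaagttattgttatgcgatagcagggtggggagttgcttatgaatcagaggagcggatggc
Tex38, chr4:115781035-115781284 (-): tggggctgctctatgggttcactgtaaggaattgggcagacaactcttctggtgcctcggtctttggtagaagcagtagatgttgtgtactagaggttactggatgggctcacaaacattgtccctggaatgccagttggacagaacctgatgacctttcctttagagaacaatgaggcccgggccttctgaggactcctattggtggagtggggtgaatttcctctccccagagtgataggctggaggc
Tex2, chr11:106612931-106613180 (-): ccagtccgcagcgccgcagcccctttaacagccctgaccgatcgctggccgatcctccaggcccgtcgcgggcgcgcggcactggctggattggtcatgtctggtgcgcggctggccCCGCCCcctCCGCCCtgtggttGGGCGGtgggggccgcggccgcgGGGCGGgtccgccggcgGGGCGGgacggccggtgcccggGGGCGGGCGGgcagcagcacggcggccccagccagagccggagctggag
The windows of Tex37, Tex46 and Tex38 hold no capitals, while that of Tex2 holds 6 stretches of them, of which the last is formed by overlapping boxes. With 54.3% GC, Tex46 lies above the median of the Tex genes that are not DEGs.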

How the data were processed

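Normalized counts of mRNA from germ cells of 5 WT and 5 KI mice were analysed, 1 library per mouse, grouped by the genotype in the sample labels. After adapter trimming, the authors used STAR with the mm10 genome and the Partek E/M model with RefSeq genes for counting, and they deposited a signal, the count of each gene divided by the DESeq2 size factor of its library. Every column was assigned (0 left over). Multiplied by this factor, 100% of values under 5000 reads were whole within 0.02 read, so that reads were recovered, 12722086 to 16422347 per library.

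The main test was limma (version 3.58.1, R 4.3.3) with a variance trend on log2(value + 1), for the 15389 of 15507 genes that passed filterByExpr, two-sided, with Benjamini-Hochberg adjustment over all genes. A DEG had an adjusted p under 0.05 and a fold change of at least 1.5. A second model held an interaction of genotype with libraries 1 to 3 against 4 and 5. Alternatives were edgeR (version 4.0.16) and DESeq2 (version 1.42.0) on the recovered reads, other scalings, filters, pseudocounts and thresholds, a term for the library group, each group alone, and leaving out each library. The fits were tested on simulated data first.

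Libraries of the same number were checked for pairing. Their deviations from the genotype means correlated with r of 0.306, 0.105, 0.280, 0.216 and 0.462, every pair over 0.1. On this ground the numbers of the labels were treated as pairs in an alternative with a replicate block. These r were not compared with those of libraries of unlike numbers. The library groups separated in the same direction in both genotypes, so such r can arise without pairs and cannot show pairing. The labels do not say what a number shares. The pairing is therefore an assumption, and every result with the library number as a block rests on it. No library duplicated another, as counts of any 2 libraries of a genotype gave a chi-square of at least 2.67 per degree of freedom.

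The members and lists were chosen with earlier results of these data known. Named by rule are the DEGs, members with an adjusted p under 0.05, the 5 highest means of the others, and Tex19.1, Tex19.2, Tex9, Tex10, Tex14, Tex101, Tex261 and Tex264. Tex13b, Tex13c1, Tex13c3, Tex16, Tex26, Tex29, Tex38 and Tex52 were named after their values were seen. From the lists for 7 Tex genes, DEGs and direct partners are named, and Sec62, Calcoco1 and Kif23 were named after their values were seen. Other genes named are Ddx25, the markers Gapdhs, Myh11 and Tagln and genes that share sequence or exons. Exonic lengths came from GENCODE vM21 (34 of 35 symbols matched), and promoter windows from RefSeq (GRCm38.p6).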

Additional observations from a re-analysis of the deposited data

Results flagged for a closer look

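In 6 of 70 groups of 5 libraries (35 Tex genes in 2 genotypes) 1 library stood apart from the other 4 by Dixon's test. Chance gives about 1 in 20 for independent groups, but these groups share the same 10 libraries, so that rate does not apply directly. The share over all genes is not given. KI library 5 was apart for 4 genes. It had normalized counts of 2122 for Tex21 (the other KI libraries 2556 to 2651), 2929 for Tex33 (4385 to 4788), 458 for Tex43 (720.3 to 779) and 52.4 for Tex52 (99.9 to 118). KI library 4 had 889 for Tex261 (638 to 690.0 in the others), and WT library 4 had 2987 for Tex36 (2144 to 2367).

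For Tex101 the change between genotypes differed between libraries 1 to 3 and libraries 4 and 5, with a difference of the log2 fold change of −0.85 (limma interaction, adjusted p = 0.0259). The adjusted p over the alternatives ran from 3.38e-05 with DESeq2 to 0.240 with scaling on spermatocyte markers.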

How the results depend on the processing

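The count of 12 lower Tex genes ran from 10 to 13 under all alternatives other than changes of the fold change threshold. A fold change of at least 2 left 6, and the share of all genes at this threshold is not given. No fold change threshold gave 16 (45.7%, against 13.3% of all genes lower in KI). Scaling to library totals lost Tex24 and Tex45, took Tex30, Tex36 and Tex43 past an adjusted p of 0.05 (0.256, 0.286 and 0.130), brought Tex14 and Tex264 under it in the higher direction (0.00839 and 0.00721) and moved the median log2 fold change of the Tex genes to −0.0796. It raised the median of all genes to 0.25 and the share of higher genes among DEGs from 42.7% to 73.1%, and relative to all genes the Tex median was −0.33 both ways. Scaling to the upper quartile raised the median of all genes to 0.12 and that share to 55.8%, and libraries 4 and 5 alone gave 30.3%. The replicate block kept the count of lower genes at 12 with 12 shared, and among the Tex genes it changed the side of adjusted p of Tex38 alone (0.00881). For the interaction, 3 Tex genes passed with DESeq2 (Tex10, Tex101 and Tex55), 0 with scaling on spermatocyte markers, and 0 to 6 when 1 library was left out. The shares of all genes that passed in these fits are not given.

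Signs turned only for Tex genes that had not passed the test. With library totals the log2 fold change was 0.158 for Tex10, 0.142 for Tex13b, 0.226 for Tex13c1, 0.187 for Tex2, 0.0873 for Tex22, 0.0778 for Tex26, 0.0752 for Tex261, 0.103 for Tex29, 0.0284 for Tex33 and 0.0657 for Tex9. With the upper quartile it was 0.0221 for Tex10, 0.00823 for Tex13b, 0.0905 for Tex13c1 and 0.0517 for Tex2. On spermatocyte markers it was 0.0584 for Tex13c1 and 0.0196 for Tex2. In libraries 4 and 5 alone it was 0.253 for Tex10, 0.0542 for Tex13c1, 0.115 for Tex2, −0.162 for Tex19.1 and −0.0109 for Tex19.2, and in libraries 1 to 3 alone 0.0926 for Tex101 and −0.101 for Tex13c3. With 1 library left out, the range was −0.214 to 0.0394 for Tex13b, −0.0541 to 0.0679 for Tex13c1, −0.119 to 0.00978 for Tex2 and −0.190 to 0.0181 for Tex29. The cause was not tested. Depth limits Tex28, whose lowest KI values are near the limit that a count of 0 leaves, and 5 libraries per genotype limit the tests of small changes.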
